A study of Mus musculus with 2 samples.

Results

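The nuclei described here are arcuate nucleus (ARC) nuclei in which a transcript of Lepr, the leptin receptor gene, was counted and which fell below the limits that define the AGRP and POMC classes. Nuclei were selected on their counts: above 800 and below 5000 genes, no more than 12000 unique molecular identifiers (UMIs), a mitochondrial share of no more than 1%, at least 0.8 times as many UMIs of the ARC hashtag as of the PVH hashtag, at least 1 Lepr UMI, at most 2 Pomc UMIs and a UMI in at most 1 of Corin, Acvr1c, Npffr2 and Htr1f, which are genes of AGRP neurons. These terms were met by 373 of the 11409 barcodes, and they are called Lepr nuclei below. The comparison was with 3189 nuclei that met the same terms but had no Lepr UMI. The nuclei were thus chosen by their counts of Lepr, Pomc and the 4 AGRP genes, so their levels are given as description only.

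Leptin, a hormone released by fat, acts in the ARC through the long form of its receptor, which activates the kinase JAK2 and the transcription factor STAT3. SOCS3, made in response to STAT3, and the phosphatase PTP1B restrain the signal. AGRP neurons, which also make NPY and GABA, drive feeding and are inhibited by leptin, whereas POMC neurons reduce feeding and are activated by it. Receptor is also present on ARC neurons of neither kind.

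The data came from male wild-type C57BL/6J mice aged 10 to 12 weeks, and the labels name no transgene or treatment. Frozen, micro-dissected tissue was pooled, and neuronal nuclei were sorted by NeuN and sequenced on the 10x platform as 1 gene expression library with its hashtag library. The hashtags name preparations called ARC and PVH and do not map nuclei to mice, so all nuclei count as 1 pooled sample with no replicates, no p-value is given, and every interval is an exact 95% interval of counting error only. Of the barcodes, 10170 passed the gene, UMI and mitochondrial limits, 4395 of these met the hashtag term and 3562 also met the Pomc and AGRP gene terms. Median depth was 5074 UMIs in the Lepr nuclei (1069 to 11434) and 4627 UMIs in the comparison nuclei (1000 to 11956). The hashtags were weakly separated: the medians in Lepr nuclei were 96 ARC and 76 PVH UMIs, and 57 Lepr nuclei (15.3%) had at least 2 times as many ARC as PVH UMIs, against 366 comparison nuclei (11.5%). Median depth and hashtag ratio were thus somewhat higher in Lepr nuclei. With the comparison nuclei weighted to the depth of the Lepr nuclei, 325 genes were 1.5-fold or more higher and 590 lower, against 306 and 589 unweighted, and the Stat3 ratio was 2.27 against 2.24.

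Lepr nuclei were 10.5% (9.48 to 11.5) of the 3562 nuclei outside the AGRP and POMC limits and 55.2% of the 676 ARC-side nuclei with a Lepr UMI. Of the other Lepr-positive nuclei, 208 had UMIs in 2 or more AGRP genes with at most 2 Pomc UMIs (AGRP-side) and 95 had 3 or more Pomc UMIs (POMC-side). Most Lepr nuclei were called on a single molecule: 273 of 373 (73.2%) had 1 Lepr UMI, 63 had 2, 27 had 3, 5 had 4 and 5 had 5. After each nucleus was thinned to 1000 UMIs, 102 of the 3562 nuclei (2.86%) still had a Lepr UMI. A comparison nucleus is therefore one without a counted Lepr molecule, which at this depth does not show that the gene was silent.

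The label was checked by clustering the ARC-side nuclei without Lepr among the genes used. The data went partly against it. The AGRP-like cluster, whose nuclei carry Agrp, Npy and the AGRP genes, held 141 Lepr nuclei (37.8%), and the POMC-like cluster held 24 (6.43%). Together these clusters held 165 of 373 (44.2%, 39.1 to 49.4), and 178 or 163 at a coarser or finer resolution. The remaining 208 lay elsewhere. Each result below is given for all Lepr nuclei and, where it matters, for these 208 against the 2910 comparison nuclei found elsewhere too, which is called the ratio in the other clusters.

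Levels are UMIs of a gene per 1000000 UMIs of the group (CPM). Over all nuclei of a cluster, Lepr was at 114 CPM (98.8 to 131) in the POMC-like cluster, followed by the AGRP-like cluster at 110.5 CPM (100.6 to 121) and a cluster named from Gm20754 and Chrm2 at 89.3 CPM (72.3 to 109). These 3 neighbours in the order overlapped in their intervals. At the finer resolution an unnamed cluster of 40 nuclei, described below, was highest at 262 CPM (194 to 347). The Gm20754 cluster (125 CPM, 102 to 153) and 1 of the AGRP-like clusters (121 CPM, 107 to 135) lay above the POMC-like cluster (114 CPM). The unnamed finer cluster of 79 nuclei was at 76.9 CPM (57.1 to 101). Next at the main resolution came unnamed cluster 2 at 32.1 CPM (26.0 to 39.1), led by Onecut3 and including Bnc2 among its 10 leading genes. Unnamed cluster 11 followed at 27.0 CPM (16.9 to 40.8), and the intervals of these 2 clusters overlapped each other. The remaining 14 clusters had 18.4 CPM or less. In the AGRP-like cluster 43.9% of nuclei had a Lepr UMI at a median of 5016 UMIs, and in the dopaminergic-like cluster 2.44% did at a median of 5088 UMIs.

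Lepr nuclei were spread over 17 of 19 clusters. The Gm20754 cluster, of 220 nuclei, held 51 of them (13.7%), or 24.2% (18.6 to 30.5) of its 211 nuclei that met the terms. Cluster 2 held 48 and the somatostatin-like cluster 18. In clusters at about 6 to 15 CPM, a single Lepr UMI from free RNA and one from the nucleus cannot be told apart. Oxt, the oxytocin gene of magnocellular neurons, was counted in 91.7% of Lepr nuclei and 89.5% of comparison nuclei, at 566 and 580.5 CPM. It was looked up after its values had been seen. Free RNA was not measured, and the source of these UMIs was not tested.

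**Figure D1:**
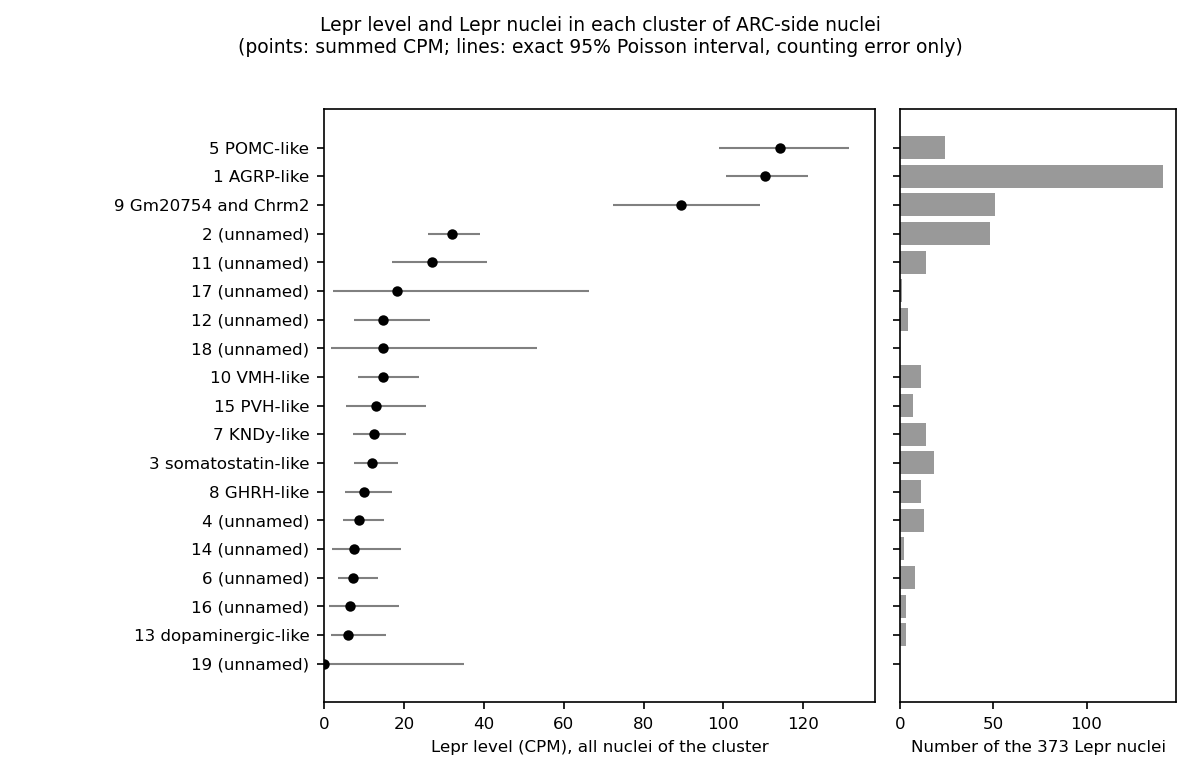
Lepr level in CPM over all nuclei of each of 19 clusters of ARC-side nuclei (points with exact 95% Poisson intervals, left) and the number of the 373 Lepr nuclei in each (bars, right). The POMC-like, AGRP-like and Gm20754 clusters lie between 89.3 and 114 CPM and every other cluster at 32.1 CPM or less, and the AGRP-like cluster holds the most Lepr nuclei, 141.

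Across the 12193 genes with at least 100 UMIs in both groups together, 306 (2.51%) were 1.5-fold or more higher and 589 (4.83%) were 1.5-fold or more lower in the Lepr nuclei. The median log2 ratio was -0.01 and the range was -2.73 to 1.77. In the other clusters, 328 of 11833 genes (2.77%) were higher and 700 (5.92%) lower by that fold. Many of these were low counts: among the 3970 genes with at least 1000 UMIs, 36 were higher and 73 lower. In simulated counts with known 2-fold changes, 0.992% of unchanged genes passed 1.5-fold higher and 1.96% passed 1.5-fold lower by counting alone, and none with at least 1000 UMIs did.

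**Figure D2:**
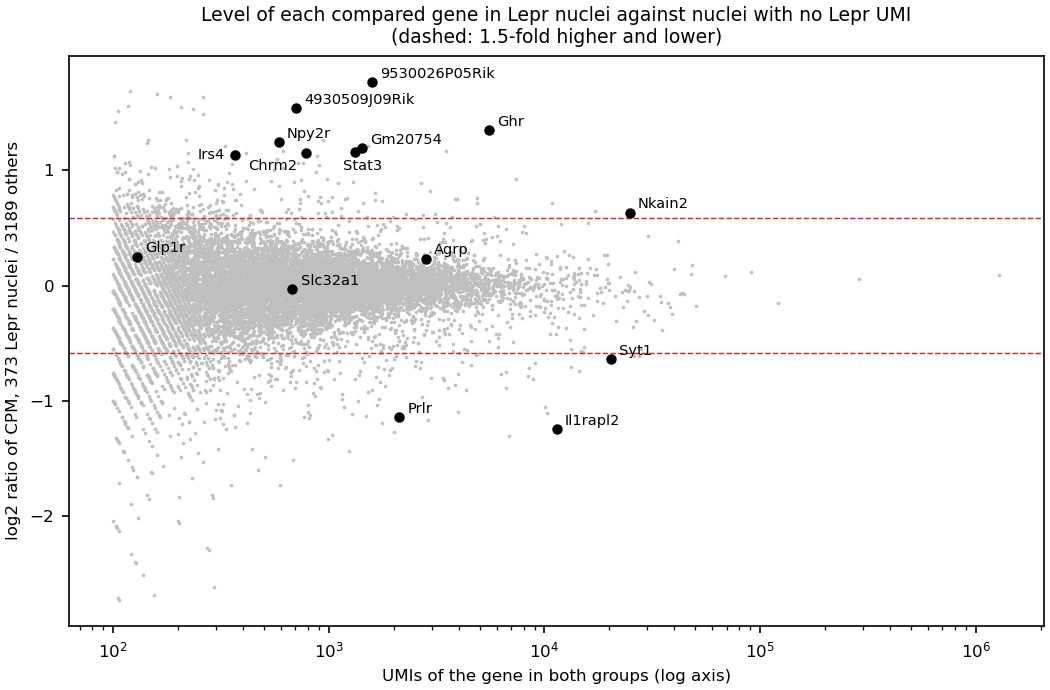
log2 ratio of CPM in Lepr nuclei to comparison nuclei (y axis) against the UMIs of the gene in both groups (x axis, log scale) for 12193 genes, with dashed lines at 1.5-fold. Stat3, Ghr, Gm20754, Chrm2 and Npy2r lie above the upper line and Prlr and Il1rapl2 below the lower one, while Slc32a1 and Glp1r lie between them.

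Among genes of leptin receptor signalling, Stat3, the transcription factor that carries the signal to the nucleus, stood above the rest. Its level was 149 CPM (133 to 167) in Lepr nuclei, 66.6 CPM (62.6 to 70.8) in comparison nuclei, 183 CPM (160.4 to 208) in AGRP-side nuclei and 158 CPM (129 to 191) in POMC-side nuclei. The 3 groups of Lepr-positive nuclei thus lay close together and all above the nuclei without Lepr. The ratio of Lepr to comparison nuclei was 2.24 (1.96 to 2.55), and 2.11 (1.75 to 2.54) in the other clusters. Stat3 was counted in 50.7% of Lepr nuclei and 24.1% of comparison nuclei, or 12.1% and 6.99% at 1000 UMIs per nucleus. Within the AGRP-like cluster, by contrast, nuclei with and without a Lepr UMI had a Stat3 ratio of 1.09 (0.86 to 1.37).

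Irs4, an insulin receptor substrate of the hypothalamus, was the other member above 1.5-fold, at 40.5 against 18.4 CPM, a ratio of 2.19 (1.69 to 2.82), or 1.63 (1.07 to 2.39) in the other clusters. Of the list's 21 genes, 19 could be compared: 2 were higher and 2 were lower, against 2.51% and 4.83% of all genes. The median log2 ratio was -0.04, against -0.01 for all genes. The lower members were Stat5a, a second transcription factor of cytokine receptors, at 0.526 (0.267 to 0.941), and Leprot, whose product limits leptin receptor at the cell surface, at 0.494 (0.209 to 1.00). They had 12 and 8 UMIs in the Lepr nuclei. Stat3 and Stat5a overlap on opposite strands in the annotation, and any effect on their counts was not tested.

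The kinase and the brakes of the pathway did not pass 1.5-fold, apart from Socs3, whose interval is wide. Jak2 was at 57.2 against 47.7 CPM (ratio 1.20, 0.975 to 1.46) and Ptpn1, which encodes PTP1B, at 129 against 109.8 CPM (ratio 1.18, 1.03 to 1.35). Socs3, below the limit of 100 UMIs, had 11 UMIs in the Lepr nuclei and a ratio of 1.80 (0.842 to 3.51), an interval that holds both 1 and the ratio of Stat3. Foxo1, a transcription factor inhibited by insulin and leptin signalling, was at a ratio of 1.48 (1.14 to 1.89) in all nuclei and 1.00 (0.652 to 1.49) in the other clusters.

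Promoter sequence is shown for the receptor, for the signalling gene that stood highest beside it and for the only gene of the 20 highest with a match to the STAT core motif TTCNNNGAA, searched on both strands. The windows run from 250 bases before to 50 bases after each start site in RefSeq (GRCm38.p6), and capitals mark the motif.
Lepr, chr4:101717157-101717456, plus strand: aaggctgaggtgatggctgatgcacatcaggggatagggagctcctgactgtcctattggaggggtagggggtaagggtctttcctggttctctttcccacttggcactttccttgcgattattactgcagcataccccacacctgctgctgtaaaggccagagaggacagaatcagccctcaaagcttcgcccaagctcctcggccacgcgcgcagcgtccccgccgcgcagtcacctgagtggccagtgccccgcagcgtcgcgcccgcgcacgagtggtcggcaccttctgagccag
Stat3, chr11:100939491-100939790, minus strand: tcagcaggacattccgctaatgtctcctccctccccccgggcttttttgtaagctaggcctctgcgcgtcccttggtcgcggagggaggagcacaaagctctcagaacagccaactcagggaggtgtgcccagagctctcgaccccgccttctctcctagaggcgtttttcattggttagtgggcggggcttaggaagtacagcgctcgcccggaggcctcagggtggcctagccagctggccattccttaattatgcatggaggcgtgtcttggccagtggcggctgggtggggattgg
Rasgrp1, chr2:117342828-117343127, minus strand: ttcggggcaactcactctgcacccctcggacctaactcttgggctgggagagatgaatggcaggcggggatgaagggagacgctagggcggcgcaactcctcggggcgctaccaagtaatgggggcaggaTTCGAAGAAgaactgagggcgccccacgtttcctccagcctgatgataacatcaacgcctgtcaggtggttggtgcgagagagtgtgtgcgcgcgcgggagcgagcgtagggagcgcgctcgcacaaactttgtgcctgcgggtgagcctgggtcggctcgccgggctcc
The motif was found in 1 of the 14 windowed genes among the 20 highest, Rasgrp1, a Ras activator at 97.6 against 44.7 CPM (ratio 2.18, 1.85 to 2.57), and in 2582 of all 27025 genes (9.55%). The match in Rasgrp1 lies 120 bases before the start site. Neither Lepr window nor the Stat3 window held these letters. A match is a description of the letters and not a site.

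**Figure D3:**
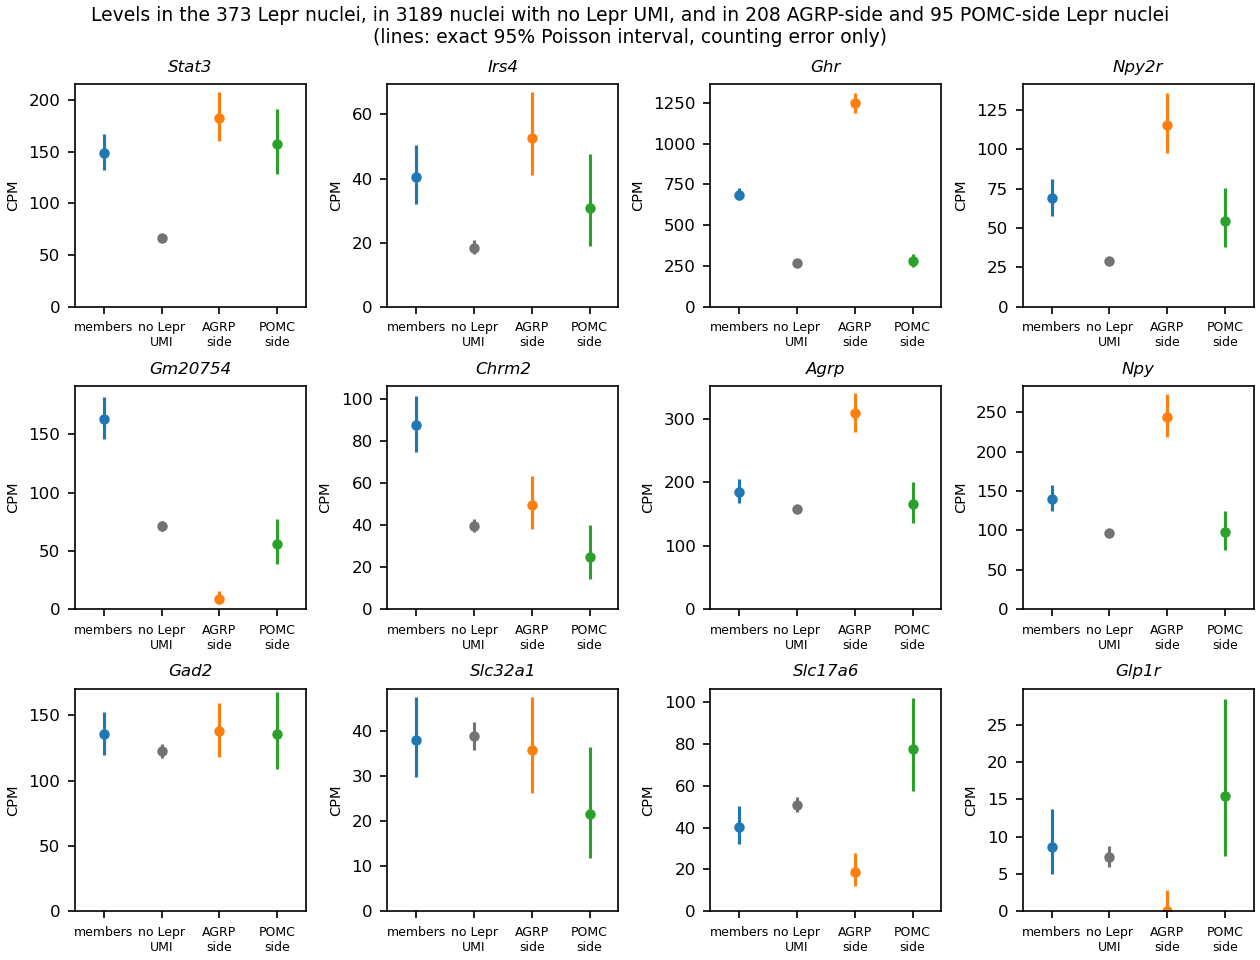
Levels in CPM (y axes from 0, exact 95% Poisson intervals) of 12 genes in the 373 Lepr nuclei, the 3189 comparison nuclei and the 208 AGRP-side and 95 POMC-side Lepr-positive nuclei. Stat3 is at 149 to 183 CPM in the 3 groups with Lepr and at 66.6 CPM without it, Ghr and Npy are highest on the AGRP side, and Gm20754 is highest in the Lepr nuclei.

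Receptors for hormones and peptides differed in opposite directions, and several were higher mainly through the Lepr nuclei of the AGRP-like cluster. Of 45 genes 30 could be compared: 5 were higher (Ghr, Calcr, Npy2r, Crhr1 and Crhr2), 9 were lower, and the median log2 ratio was -0.18. Among all genes 2.51% were higher and 4.83% lower. Ghr, the growth hormone receptor, was at 688 CPM (652 to 725) in Lepr nuclei and 269.8 CPM (262 to 278) in comparison nuclei, a ratio of 2.55 (2.40 to 2.71). On the AGRP side it was at 1247 CPM, and the Lepr nuclei inside the AGRP-like cluster were at 1419 CPM. In the other clusters the Ghr ratio was 1.19 (1.05 to 1.35), and within the AGRP-like cluster it was 1.14 (1.05 to 1.24).

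Calcr, the calcitonin receptor, followed the same course, with a ratio of 1.82 (1.47 to 2.24) over all nuclei and 0.881 (0.568 to 1.31) in the other clusters. Npy2r, a receptor that inhibits the neurons carrying it, had ratios of 2.38 (1.95 to 2.88) and, in the other clusters, 1.70 (1.20 to 2.36), but 1.28 (0.801 to 1.97) with the Gm20754 cluster set aside as well. Crhr2, a receptor for urocortins, had the opposite course: 1.53 (0.944 to 2.38) over all nuclei and 2.51 (1.55 to 3.91) in the other clusters, on 24 UMIs. All 24 of these UMIs were in Lepr nuclei of the other clusters, and 16 of them were in the 51 Lepr nuclei of the Gm20754 cluster. Crhr2 was among the leading genes of that cluster. Within the Gm20754 cluster of the finer resolution, the Crhr2 ratio was 0.785 (0.411 to 1.43). Whether Crhr2 stayed higher with the Gm20754 cluster set aside was not tested.

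The lower receptors were led by Prlr, the prolactin receptor, at 58.7 against 129.5 CPM, a ratio of 0.453 (0.372 to 0.546), or 0.546 (0.433 to 0.681) in the other clusters. Tacr1, the substance P receptor, had a ratio of 0.373 (0.202 to 0.637) and Igf1r, the insulin-like growth factor receptor, 0.560 (0.459 to 0.677). In the other clusters 3 of the 30 receptors compared were higher (Glp1r, Npy2r and Crhr2) and 5 lower, among them Prlr, Trhr, Tacr1 and Tacr3. The median log2 ratio was -0.06, and 2.77% of all genes were higher and 5.92% lower there.

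The markers stated for these nuclei besides Lepr, which chose them, were Glp1r, Cxcl12 and Slc32a1, and over all nuclei each had a ratio whose interval includes 1. Glp1r, the receptor for the gut peptide GLP-1, was counted in 15 Lepr nuclei (4.02%) and in 3.29% of comparison nuclei, or 0.804% and 0.784% at equal depth. Its level was 8.60 CPM (5.01 to 13.8) against 7.22 CPM (5.95 to 8.69), a ratio of 1.19 (0.670 to 1.99). In the other clusters the ratio was 1.73, with an interval of 0.915 to 3.04 that includes 1, and with the Gm20754 cluster set aside as well it was 2.16 (1.11 to 3.87). Glp1r had no UMI in the AGRP-side nuclei and 10 UMIs in the smaller group of POMC-side nuclei. In Lepr-positive nuclei with at most 1 AGRP gene, it was at 32.0 CPM (10.4 to 74.7) with 3 Pomc UMIs. With 4 and with 5 or more it was at 13.5 CPM (0.341 to 75.0) and 10.4 CPM (2.84 to 26.7). None of these levels was below the 8.60 CPM of the Lepr nuclei, so Glp1r did not set them apart from the POMC side. Cxcl12, a chemokine, had 4 UMIs in the Lepr nuclei and 12 in the comparison nuclei, too few to show a difference (ratio 2.61, 0.614 to 8.62). No nucleus among the Lepr nuclei had both Glp1r and Cxcl12.

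Transmitter genes were mixed. Slc32a1, the vesicular GABA transporter, was at 37.9 CPM (29.8 to 47.5) in Lepr nuclei and 38.8 CPM (35.8 to 42.1) in comparison nuclei, a ratio of 0.977 (0.758 to 1.24). It was counted in 18.2% and 16.7% of nuclei, and in 4.02% and 4.01% at equal depth. Among the nuclei with at least 2 times as many ARC as PVH hashtag UMIs, the Slc32a1 ratio was 0.373 (0.118 to 0.909). Slc17a6, the vesicular glutamate transporter of the hypothalamus, was at 40.5 against 50.7 CPM (ratio 0.798, 0.626 to 1.01), or a ratio of 1.11 (0.847 to 1.43) in the other clusters. Gad2, a GABA-synthesising enzyme, was at 136 against 122 CPM (ratio 1.11, 0.970 to 1.26). Both transporters were counted together in 12 Lepr nuclei (3.22%).

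Of 14 transmitter genes 8 could be compared, none was higher and 2 were lower, against 2.51% and 4.83% of all genes, with a median log2 ratio of -0.35. These were Th and Ddc, enzymes of dopamine synthesis, at ratios of 0.440 (0.224 to 0.784) and 0.514 (0.381 to 0.679). Ddc alone was past the fold in the other clusters, at 0.656 (0.465 to 0.902), with Th at 0.671 (0.330 to 1.23) and a median of -0.05. Among all genes 2.77% were higher and 5.92% lower there.

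Peptide genes of the AGRP neuron tracked the AGRP-like cluster. Agrp was at 186 CPM (167 to 206) in Lepr nuclei, 158 CPM (152 to 164) in comparison nuclei and 309 CPM (279.8 to 341) on the AGRP side. The Agrp ratio was 1.18 (1.05 to 1.31), and 0.959 (0.811 to 1.13) in the other clusters. Agrp was counted in 60.1% of Lepr nuclei and 49.3% of comparison nuclei, or 20.9% and 14.0% at equal depth. In the other clusters it was at 143 CPM in Lepr nuclei and 149 CPM in comparison nuclei, against 260 and 273 CPM within the AGRP-like cluster. A counted Agrp UMI thus does not mark an AGRP neuron here. The annotated Agrp gene overlaps 7 others, among them Gm45855 and Gm5914 on its own strand, and the source of these UMIs was not tested. Npy had a ratio of 1.45 (1.27 to 1.65), and 0.923 (0.735 to 1.15) in the other clusters. Otp, a transcription factor of AGRP and other hypothalamic neurons, had ratios of 2.07 (1.58 to 2.69) and 0.822 (0.442 to 1.41).

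Cartpt, the CART peptide gene of POMC and other neurons, went the other way: 118 against 82.5 CPM, a ratio of 1.43 (1.24 to 1.65), and 1.71 (1.44 to 2.02) in the other clusters. Of 28 neuropeptide genes 17 could be compared, none was 1.5-fold higher and 1 was lower, against 2.51% and 4.83% of all genes, with a median log2 ratio of -0.04. The lower gene was Tac2, neurokinin B, at 0.459 (0.277 to 0.719). Of 16 compared in the other clusters, 2 were higher, Cartpt and Pdyn, the dynorphin gene, at 1.76 (0.905 to 3.16), and Tac2 was lower, against 2.77% and 5.92% of all genes, with a median of -0.10. Trh, which encodes thyrotropin-releasing hormone, was at 27.8 against 28.3 CPM (ratio 0.982, 0.728 to 1.30).

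Agrp and Ghr differed in steps across the limit on AGRP genes. Among Lepr-positive nuclei with at most 2 Pomc UMIs, 226 had no AGRP gene with a UMI and 147 had 1 (just inside), and 119 had 2 (just outside). Agrp was at 158 CPM in the first, 226 CPM in the second and 299 CPM in the third, and Ghr at 521, 930.3 and 1233 CPM. Gm20754 ran the other way, at 232, 63.3 and 5.78 CPM. Lepr itself was at 276, 251 and 234 CPM. Across the limit on Pomc, Ghr was at 716, 703 and 501 CPM with 0, 1 and 2 Pomc UMIs (inside, the last in 39 nuclei) and at 263, 269 and 248 CPM with 3, 4 and 5 or more (outside, the first in 24 nuclei), so its level was lower at the limit and then about flat. Lepr showed no such order over these 6 classes, at 275, 255, 246, 237, 337 and 292 CPM.

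Some genes that stood higher in the other clusters did so through the Gm20754 cluster, and others did not. Gm20754, a long non-coding RNA, was at 163 CPM (146 to 182) in Lepr nuclei, 71.3 CPM (67.2 to 75.7) in comparison nuclei, 8.53 CPM on the AGRP side and 55.7 CPM on the POMC side. Its ratio was 2.29 (2.02 to 2.59) over all nuclei and 3.58 (3.14 to 4.07) in the other clusters. 4930509J09Rik, which overlaps it on the opposite strand, had ratios of 2.90 (2.45 to 3.44) and 4.58 (3.85 to 5.43). Any effect of the overlap on the counts of this pair was not tested. Chrm2, an inhibitory muscarinic acetylcholine receptor, was at 87.5 against 39.5 CPM, with ratios of 2.22 (1.86 to 2.63) and 3.02 (2.48 to 3.65). With the Gm20754 cluster set aside as well, the ratios were 1.11 (0.816 to 1.47) for Gm20754, 1.69 (1.16 to 2.38) for 4930509J09Rik and 2.47 (1.87 to 3.23) for Chrm2. Of the 11660 genes compared with 157 Lepr nuclei left, 351 were then 1.5-fold or more higher and 819 lower. These totals do not show which genes stayed higher, and fewer nuclei give lower counts.

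More genes were visible mainly in the other clusters. Dsg2, a desmosomal cadherin, had a ratio of 4.42 (2.71 to 6.99) on 26 UMIs, Vav3, a guanine nucleotide exchange factor, 3.04 (2.21 to 4.12), and Lbh, a transcription cofactor, 3.16 (1.95 to 4.93). Nkain2, which encodes a protein that binds the sodium pump, had ratios of 1.55 (1.5 to 1.60) over all nuclei and 2.38 (2.30 to 2.47) in the other clusters. The 51 Lepr nuclei of the Gm20754 cluster held 17 of the Dsg2 UMIs and 26 Vav3 UMIs. Nkain2 was at 9449 CPM in them and at 2907 CPM in the Lepr nuclei of cluster 2. Within cluster 2 the ratios were 3.53 (1.25 to 8.86) for Dsg2, 2.27 (1.25 to 3.91) for Vav3, 4.54 (1.55 to 12.0) for Lbh and 2.03 (1.88 to 2.19) for Nkain2. Of the 14 membrane targets listed for leptin signalling 13 could be compared, with 2 higher, among them Trpc4, 1 lower (Trpc5) and a median log2 ratio of 0.21. In the other clusters 1 was higher and none lower, with a median of 0.05. Among all genes 2.51% were higher and 4.83% lower, or 2.77% and 5.92% in the other clusters. Trpc4, a cation channel, had a ratio of 1.56 (1.32 to 1.84) over all nuclei and 0.835 (0.606 to 1.13) in the other clusters.

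Several of these genes also differed inside the Gm20754 cluster itself. There 51 Lepr nuclei had Gm20754 at 1051 CPM and 160 comparison nuclei at 487 CPM, a ratio of 2.16 (1.83 to 2.53). Vav3 had a ratio of 5.23 (2.70 to 10.4), Stat3 2.30 (1.49 to 3.51) and Chrm2 1.35 (1.01 to 1.79), which is under 1.5-fold. Slc32a1 had 10 UMIs in these Lepr nuclei, and its ratio of 0.607 (0.276 to 1.21) has an interval that includes 1. A finer clustering split off 62 of its nuclei of which none had a Lepr UMI, which allows a share of up to 4.84%, and put all 51 Lepr nuclei in a cluster of 159 at 125 CPM Lepr (102 to 153). Within that finer cluster, 51 Lepr nuclei were set against 102 others. The ratios were 1.46 (1.24 to 1.72) for Gm20754, 3.49 (1.78 to 7.08) for Vav3, 1.83 (1.16 to 2.87) for Stat3 and 1.53 (1.11 to 2.11) for Chrm2.

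Tbx19, a T-box transcription factor that was looked up after its values had been seen, fell below the limit of 100 UMIs. This gene was on the POMC-like marker list and was also among the 10 leading genes of the Gm20754 cluster. It had 29 UMIs in 26 Lepr nuclei (6.97%) and 34 UMIs in 27 comparison nuclei (0.847%), or 2.41% and 0.188% at equal depth. The levels were 14.7 CPM (9.82 to 21.1) and 2.19 CPM (1.52 to 3.06), a ratio of 6.69 (3.93 to 11.3). Of the 26 nuclei, 20 lay in the Gm20754 cluster, where Tbx19 was counted in 39.2% (25.8 to 53.9) of Lepr nuclei and 11.2% (6.81 to 17.2) of the others.

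**Figure D4:**
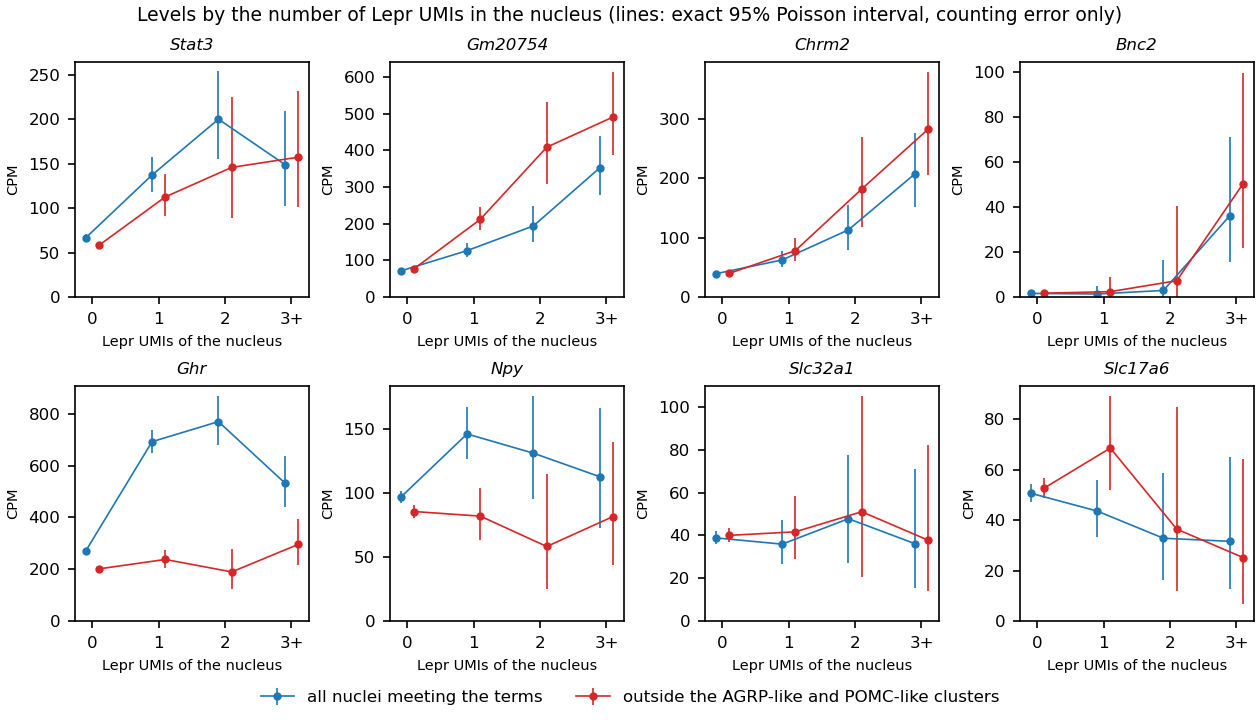
Levels in CPM (y axes from 0, exact 95% Poisson intervals) of 8 genes in nuclei with 0, 1, 2 and 3 or more Lepr UMIs, for all nuclei that met the terms and for those in the other clusters. Gm20754 and Chrm2 are higher at each step, Bnc2 is at 36.1 CPM only with 3 or more Lepr UMIs, and Slc32a1 lies between 35.9 and 47.8 CPM throughout in all nuclei.

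Nuclei with more Lepr UMIs differed in kind. Gm20754 was at 71.3 CPM with no Lepr UMI, 127 CPM with 1, 194 CPM with 2 and 352 CPM (279 to 440) with 3 or more, and Chrm2 at 39.5, 62.6, 113 and 208 CPM. Stat3 was at 66.6, 137, 199.99 and 149 CPM, where the last pair of intervals overlap (155 to 254 and 103 to 209), and in the other clusters at 58.3, 113, 146 and 157 CPM. Of the 37 nuclei with 3 or more Lepr UMIs, 12 lay in the Gm20754 cluster and 9 in the AGRP-like cluster, and of the 273 with 1 UMI, 26 and 102 did. Median depth was 5019 UMIs with 1 Lepr UMI and 5768 UMIs with 3 or more, and its part in these levels was not tested.

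Bnc2, a zinc finger transcription factor, marked few nuclei. It had 11 UMIs in 7 Lepr nuclei (1.88%) and 26 UMIs in 22 comparison nuclei (0.690%), or 0.804% and 0.157% at equal depth. Its level was 5.56 CPM (2.78 to 9.95) against 1.68 CPM (1.10 to 2.46), a ratio of 3.32 (1.48 to 6.95), or 5.61 (2.49 to 11.8) in the other clusters. Bnc2 had no UMI in AGRP-side or POMC-side nuclei. The 7 Lepr nuclei with Bnc2 carried 5, 2, 4, 3, 1, 5 and 3 Lepr UMIs, where 1 was the count in 73.2% of Lepr nuclei. None of the 57 Lepr nuclei with at least 2 times as many ARC as PVH hashtag UMIs had a Bnc2 UMI, which allows a share of nuclei with a UMI of up to 5.26%, above the 1.88% of all Lepr nuclei, so that no difference was detectable at this number. Of the 7, 3 had a Slc32a1 UMI, 1 a Slc17a6 UMI and 2 a Glp1r UMI.

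The finer clustering also drew 40 nuclei out of cluster 2 that had the highest Lepr level of any of its clusters, 262 CPM (194 to 347), with Lepr counted in 22 of them and 19 among the Lepr nuclei. No marker list passed the naming rule in this cluster, and its leading genes were Pde11a, Osbpl3 and Itpr2. It had Bnc2 in 7 nuclei at 64.2 CPM (33.2 to 112), Glp1r at 42.8 CPM (18.5 to 84.4) and Slc32a1 at 58.9 CPM (29.4 to 105). Its 19 Lepr nuclei had 9 Slc32a1 UMIs and no Slc17a6 UMI, Stat3 at 250 CPM and Chrm2 at 271 CPM, and 4 of the 7 Lepr nuclei with Bnc2 were among them. Within cluster 2, finer cluster included, 48 Lepr nuclei stood above 522 others in Stat3 (ratio 3.01, 2.11 to 4.21), Chrm2 (2.86, 1.95 to 4.11), Bnc2 (7.43, 2.72 to 19.7) and Glp1r (6.06, 1.77 to 19.1). These ratios rest in part on the finer cluster. Its 19 Lepr nuclei held all 6 Glp1r UMIs of the 48, 7 of 9 Bnc2 UMIs, 26 of 40 Chrm2 UMIs and 24 of 47 Stat3 UMIs.

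9530026P05Rik, a non-coding RNA, was higher in all 3 groups of Lepr-positive nuclei. It was at 244 CPM (222 to 267) in Lepr nuclei, 71.5 CPM (67.3 to 75.8) in comparison nuclei, 419 CPM on the AGRP side and 447 CPM on the POMC side. Its ratio was 3.41 (3.06 to 3.80), the highest lower bound of all compared genes, and 2.20 (1.79 to 2.68) in the other clusters. It overlaps, on the opposite strand, Adamts9, a secreted protease gene with ratios of 3.11 (2.21 to 4.32) and, in the other clusters, 1.58 (0.788 to 2.88). Any effect of this overlap on the counts was not tested. Prox1os, antisense to the transcription factor gene Prox1 and equally untested in this respect, was at 37.4 against 12.1 CPM, with ratios of 3.10 (2.34 to 4.08) and 2.73 (1.78 to 4.07). Adamtsl3, an ADAMTS-like secreted protein, had ratios of 2.89 (2.13 to 3.88) and 2.78 (1.76 to 4.24). It was also a leading gene of the unnamed finer cluster of 79 nuclei led in part by Npffr2 and Htr1f. Within cluster 2 the ratios of Prox1os and Adamtsl3 were 4.40 (2.21 to 8.39) and 4.19 (1.31 to 11.8). Within the AGRP-like cluster both were 1.12 (0.696 to 1.80). Prox1os had 3 UMIs in the Lepr nuclei of the Gm20754 cluster, and Adamtsl3 had 1 UMI in those of the POMC-like cluster.

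Another set was high over all nuclei and not in the other clusters. Csgalnact1, an enzyme of chondroitin sulphate synthesis, went from a ratio of 2.32 (2.05 to 2.62) to 0.893 (0.674 to 1.16), Filip1, which binds filamin, from 2.40 (2.06 to 2.80) to 0.976 (0.668 to 1.38) and Prune2 from 2.25 (2.08 to 2.44) to 1.22 (1.04 to 1.42). All 3 had higher levels on the AGRP side, at 385, 271 and 801 CPM, than in the Lepr nuclei. Gm20647, from 2.93 (2.11 to 4.00) to 0.430 (0.087 to 1.30), lies antisense to Corin, a gene of the rule.

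**Figure D5:**
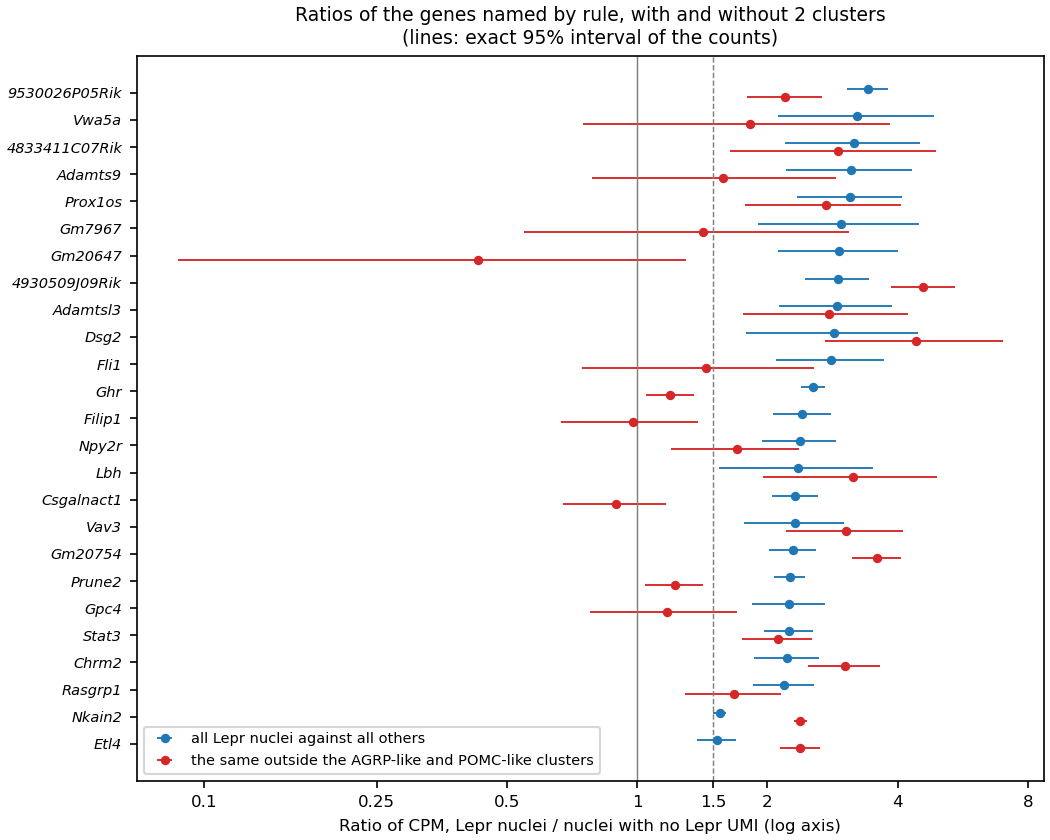
Ratio of CPM in Lepr nuclei to comparison nuclei (x axis, log scale, with exact 95% intervals) for 25 genes, over all nuclei and in the other clusters. Gm20754, 4930509J09Rik, Chrm2, Dsg2 and Nkain2 have higher ratios in the other clusters, Ghr, Csgalnact1, Filip1 and Prune2 lower ones, and Stat3 is at 2.24 and 2.11.

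Among receptors for acetylcholine and amines, 10 of 18 could be compared, with a median log2 ratio of -0.41. Of these, 3 were higher (Chrm2, Htr1b and Adra1a) and 3 lower (Htr2a, Htr2c and Drd2), against 2.51% and 4.83% of all genes. In the other clusters 2 of 8 were higher (Chrm2 and Adra1a) and 2 lower (Htr2a and Drd2), against 2.77% and 5.92% of all genes. The median there was -0.26. Adra1a, an adrenergic receptor that excites neurons, was at 76.4 against 36.5 CPM, with ratios of 2.09 (1.74 to 2.51) and 2.00 (1.53 to 2.57) over all nuclei and in the other clusters. Of 12 immediate early genes, which report recent activity, 4 could be compared and none passed 1.5-fold in either direction, with a median log2 ratio of 0.27. Among the 4, Junb did in the other clusters, at 1.51 (0.802 to 2.64) on 14 UMIs.

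Of 42 hypothalamic transcription factors 24 could be compared, 1 was higher (Otp) and 8 were lower, against 2.51% and 4.83% of all genes, with a median log2 ratio of -0.30. Foxp2, a forkhead factor, had ratios of 0.488 (0.394 to 0.599) and 0.684 (0.542 to 0.854) and Tcf7l2, an effector of Wnt signalling, 0.458 (0.331 to 0.619) and 0.636 (0.445 to 0.886). In the other clusters 1 of 24 was higher (Dlx2, on 14 UMIs) and 2 were lower, among them Tcf7l2, against 2.77% and 5.92% of all genes, with a median of -0.07. Il1rapl2, a synaptic organiser, was lower as well, at 293 against 696 CPM, a ratio of 0.421 (0.387 to 0.458), and 0.576 (0.524 to 0.632) in the other clusters. Ndst4, an enzyme of heparan sulphate synthesis, had ratios of 0.371 (0.278 to 0.485) and 0.377 (0.260 to 0.530).

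Summed markers of other cells did not run higher in the Lepr nuclei, except endothelial and mural markers. The 5 oligodendrocyte markers summed to 63.7 CPM (53.1 to 75.9) in Lepr nuclei and 125 CPM (119.9 to 131) in comparison nuclei, and Mog, a myelin gene, had 3 UMIs in the Lepr nuclei, a ratio of 0.156 (0.032 to 0.464). The astrocyte markers summed to 6.57 and 13.5 CPM, the microglia markers to 127 and 142 CPM and the tanycyte markers to 112 and 122 CPM, with 1 tanycyte marker at 0 in the Lepr nuclei. The endothelial and mural markers summed to 4.05 CPM (1.75 to 7.97) and 2.13 CPM (1.46 to 2.99), with 3 of 5 at 0 in the Lepr nuclei. Of the neuronal markers, Snap25 was at 659.5 against 695 CPM and Syt1, a synaptic vesicle protein, at 779.9 against 1211 CPM. The part of these cells in the ratios above was not tested.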

How the data were processed

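The authors deposited raw UMI counts per gene and barcode for 32285 genes, with 2 hashtag features. The submitters' processing notes name mm10, Cell Ranger 5.0 and Seurat 4, whereas the matrix header names Cell Ranger 4.0.0; the counts are as deposited. Counts were summed over each group and divided by its total as CPM, a share of the total scaled to 1000000. Exact Poisson intervals were given for levels, exact Clopper-Pearson intervals for shares and for ratios of counts (numpy 2.4.6, scipy 1.17.1, Python 3.11.15). With 1 pooled sample no test between groups exists. The steps were tested on simulated data, in which 200 of 12193 genes were raised 2-fold and 99% of them passed 1.5-fold.

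Genes with at least 100 UMIs over both groups were compared. Named were the 20 with the highest lower bound and the 8 with the lowest upper bound of the ratio, the stated markers, the genes of the rule and those farthest from 1 in each list. The genes named for their ratios in the other clusters, the pairs with overlapping genes, Tbx19, Oxt and Trh were chosen after their values were seen. The nuclei and the gene lists were chosen with earlier results of these data known.

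ARC-side nuclei were clustered (scanpy 1.11.5, leidenalg 0.10.2) on 2000 variable genes without Lepr, scaled to 10000 counts, with 30 components, 20 neighbours and Leiden resolution 0.55 (0.3 and 1.0 as alternatives), and named only from marker lists. Shares at equal depth used nuclei thinned to 1000 UMIs, and no nucleus was shallower. No doublet caller was run, and the hashtag term keeps nuclei with near-equal hashtags, so doublets of ARC and PVH nuclei can remain. Gene positions and overlaps came from GENCODE M21, which matched 32158 of the 32285 gene identifiers. Some results of the named-gene rule are not reported here.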

Additional observations from a re-analysis of the deposited data

Results flagged for a closer look

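Lepr was also counted in nuclei that the comparisons left out, those on the PVH side of the hashtag term. Among 5423 such nuclei that met every other term, 250 had a Lepr UMI (4.61%, 4.07 to 5.2). Their Lepr level was 12.3 CPM (11.01 to 13.7), against 30.03 CPM (27.5 to 32.7) in the ARC-side nuclei that met the same terms, with median depths of 4595 and 4675 UMIs. The lowest Lepr level of a named ARC-side cluster, the dopaminergic-like one, was 6.10 CPM (1.66 to 15.6), and 2.44% of its nuclei had a Lepr UMI. Lepr of PVH-side nuclei, ARC nuclei with a low hashtag ratio and free RNA cannot be told apart here.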

How the results depend on the processing

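No paired analysis was possible because the nuclei form 1 pooled sample with no replicate numbers. The exact 95% interval was the yardstick of each ratio, and of 102 main values and counts 72 stayed within their limits, while among the genes named singly 263 did, 111 moved and 8 reversed. The ratio of Stat3 lay between 1.81 and 2.70 under 12 alternatives. Requiring at least 2 times as many ARC as PVH hashtag UMIs left 57 Lepr nuclei, with 158 genes higher and 327 lower. The ratios were then 0.373 (0.118 to 0.909) for Slc32a1 and 1.11 (0.638 to 1.82) for Slc17a6. Those of Cxcl12, at 11.2 (0.582 to 659), Mog, at 1.12, and Bnc2, at 0, rested on few molecules and show no difference. Dropping the hashtag term gave 623 Lepr nuclei. At least 2 Lepr UMIs left 100 nuclei, with 790 genes higher, 1540 lower and an Agrp ratio of 1.36. No Pomc UMI left 221 nuclei. No UMI in the AGRP genes left 226 (Agrp ratio 1.02), and with at most 1 Agrp and 1 Npy UMI as well 165 (Agrp 1.02, Slc17a6 1.03). A minimum of 30 UMIs gave 805 genes higher and 1357 lower, and 1 UMI in each group gave 2677 and 1885, so that 58.7% of the genes past the fold were higher against 34.2% at 100 UMIs. The cause was not tested for any of these.

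Chosen after seeing the data were a minimum of 1000 UMIs (36 genes higher, 73 lower) and the removal of clusters. Without the AGRP-like and POMC-like clusters, 208 Lepr nuclei gave ratios of 1.11 for Slc17a6, 0.959 for Agrp, 0.893 for Csgalnact1, 0.976 for Filip1, 0.430 for Gm20647 and 0.877 for Corin. Without the Gm20754 cluster as well, 157 gave 2.16 for Glp1r, 1.21 for Slc17a6, 0.944 for Agrp, 0.968 for Csgalnact1 and 0.520 for Gm20647. Depth limits what a nucleus without a Lepr UMI shows, and genes under 100 UMIs, such as Cxcl12, Bnc2 and Tbx19, rest on few molecules.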
